A study of Mus musculus with 8 samples.

Results

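Retinal ganglion cell (RGC) nuclei with high Cartpt were examined in sorted nuclei of the adult mouse retina. Cartpt encodes the precursor of the cocaine- and amphetamine-regulated transcript peptides and is widely used to mark direction-selective RGCs. A barcode counted as an RGC nucleus with at least 2000 unique molecular identifiers (UMIs, one for each captured RNA molecule), a mitochondrial share of at most 5%, at least 2 UMIs of Rbpms and Slc17a6 together, and at most 1 UMI of Gad1, Gad2 and Slc6a9 together. Cartpt-high nuclei were then selected on the measured counts themselves, with at least 5 Cartpt UMIs and with fewer than 2 of Opn4, Eomes and Tbx20 detected. Of 33687 barcodes that passed the first 2 conditions, 23059 were RGC nuclei, and 1909 of these (8.28%) were Cartpt-high. The other 21150 RGC nuclei served as the comparison.

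Single-nucleus RNA-seq libraries (10x 3′, v3.1 chemistry) came from retinae of female mice at postnatal day 120, with 6 retinae pooled in a library and nuclei sorted for RBPMS and NeuN. There were 4 libraries of Piezo2f/f controls (replicates 1 to 4) and 4 of conditional knockouts (cKO, Olig2-cre;Piezo2f/f, numbered 10 to 13). All mice carried floxed Piezo2 alleles, and the cKO mice also carried Olig2-cre, which drives Cre in the Olig2 lineage and leaves them heterozygous for Olig2. The retina comparison addressed whether the Cre driver altered retinal gene expression.

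Direction-selective RGCs fire strongly to motion in a preferred direction and weakly to the opposite one. Their selectivity comes largely from asymmetric GABA release by starburst amacrine cells, which also supply acetylcholine, while bipolar cells supply glutamate. On-Off direction-selective cells respond to both light onset and offset and fall into types tuned to different directions along the retinal axes, with cadherins, transcription factors and peptide receptors among the genes that separate the types.

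Libraries held 35697629 to 60088630 UMIs, and 2443 to 5104 barcodes passed the first conditions. Cartpt-high nuclei numbered 202, 292, 171 and 138 in control replicates 1 to 4 and 208, 335, 370 and 193 in cKO replicates 10 to 13. They were deeper than the other RGC nuclei in each library, with library medians of 6236 to 12547.5 UMIs against 4742 to 10702. At most 5 barcodes were shared between RGC nuclei of any pair of libraries, at most 0.309% of a library, and 1 Cartpt-high barcode occurred in more than 1 library. Chat, the defining gene of cholinergic amacrine cells, had 4 UMIs in all Cartpt-high nuclei together.

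Cartpt (chromosome 13, 100034990 to 100047006, minus strand, GRCm39) chose the nuclei, so its level is a description. It stood at 1455, 1063, 992 and 960 CPM (the UMIs of a gene scaled to 1000000 UMIs of the summed nuclei) in control replicates 1 to 4. In cKO replicates 10 to 13 it stood at 1235, 1756, 1334 and 977 CPM. The other RGC nuclei held 41.2 to 125 CPM. A Cartpt-high nucleus carried a median of 8 to 11 Cartpt UMIs, depending on the library, and 51.9 to 71.7% of all Cartpt UMIs of RGC nuclei lay in the Cartpt-high ones.

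The boundary of the selection was not empty. Just outside it, 350 RGC nuclei had 4 Cartpt UMIs, and just inside it, 266 had 5. Barcodes of at most 100 UMIs, which hold mostly free RNA, had 836 to 1765 CPM of Cartpt. At least 5 Cartpt UMIs were nevertheless rare in nuclei that should lack the gene, at 1.29% of 1701 rod nuclei and 0.131% of 1527 bipolar nuclei, at library medians of 3021 to 3833 and 2532 to 4434 UMIs. In 2363 nuclei with inhibitory markers, from which barcodes with at least 2 of the dopamine genes Th, Ddc, Slc18a2 and Gch1 had been left out, at 4138 to 7768 UMIs, the share was 1.18%. The RGC share was 5.53 to 10.1%, at 4850 to 10932 UMIs, and exceeded each of these 3 background shares in 8 of 8 libraries. By CPM the order differed for rods, whose nuclei held 34.1 to 673 CPM of Cartpt against 131 to 320 CPM in all RGC nuclei and were above them in control replicate 1 and cKO replicates 11, 12 and 13. After thinning each nucleus to 2000 UMIs, at least 3 Cartpt UMIs remained in 1.84 to 6.46% of RGC nuclei, 0.298 to 3.27% of inhibitory, 0 to 2.41% of rod and 0 to 1.49% of bipolar nuclei. A single Cartpt UMI did not separate RGC from rod and bipolar nuclei, since at least 1 remained in 13.9 to 30.8% of RGC, 6.47 to 26.4% of rod and 7.14 to 30.1% of bipolar nuclei. This share was lower in RGC than in rod nuclei in control replicates 2 and 3 and cKO replicate 12, and lower than in bipolar nuclei in control replicates 1, 2 and 3 and cKO replicate 10. In inhibitory nuclei it was 6.22 to 19.6%, below the RGC share in each library.

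Most barcodes with very high Cartpt lay outside the RGC nuclei. There, 193 barcodes carried at least 2 of Th, Ddc, Slc18a2 and Gch1, which serve dopamine synthesis and vesicular loading. Of these, 95 had at least 100 Cartpt UMIs, against 2 of the 23059 RGC nuclei. They held 24.7 to 39.3% of the Cartpt UMIs in the barcodes of a library that passed the first 2 conditions, and the Cartpt-high RGC nuclei held 30 to 43.5%. Among the Cartpt-high nuclei 8 met the same criterion, 1 of them with 363 Cartpt UMIs in control replicate 2, while the highest count in the remaining ones was 37 to 52 UMIs in a library.

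**Figure D1:**
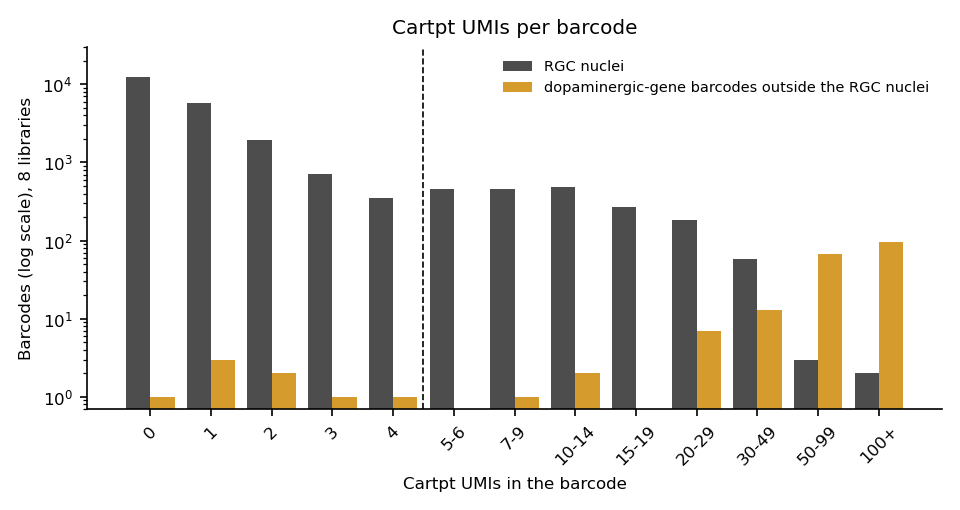
Number of barcodes (log axis, 8 libraries pooled) by the Cartpt UMIs they held, for RGC nuclei (grey) and for barcodes outside them with at least 2 of Th, Ddc, Slc18a2 and Gch1 (ochre). The dashed line is the threshold of 5 UMIs, and 95 ochre but only 2 grey barcodes reach 100 UMIs.

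Genes that the selection did not use were then set beside the label. The gene lists were chosen with earlier results of these data known, so they are not an independent check of it. UMI counts were summed per library over Cartpt-high and over other RGC nuclei, and a gene was called at an edgeR adjusted p under 0.05 with an absolute log2 fold change over 0.5. Of 20 genes linked to On-Off direction-selective RGCs, 18 passed the filter on low counts (Mnx1 and Hoxd10 did not), 8 were higher in Cartpt-high nuclei and 2 were lower. Over all 15944 genes tested, 4.32% were called higher and 6.2% lower. The median log2 fold change of the list was 0.23, against 0.01 over all genes.

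Cdh6 (chromosome 15, 13028787 to 13174004), a classical cadherin used to mark some of these types, had 367, 413 and 474 CPM as its lowest, median and highest library value in Cartpt-high nuclei. In the other RGC nuclei these were 58.5, 68.6 and 84.7 CPM. The 2 classes did not overlap over the libraries, and the log2 fold change was 2.60 ± 0.03 (SE, 8 libraries; edgeR adjusted p = 2.5e-34). Col25a1 (chromosome 3, 129925150 to 130393532), a transmembrane collagen, had 269, 296 and 350 CPM against 27.1, 31.6 and 42.4 CPM (log2 fold change 3.19 ± 0.05, SE). The homeodomain regulator Satb1 had 264, 281 and 319 CPM against 91.3, 93.4 and 103 CPM (log2 fold change 1.56 ± 0.03, SE).

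Lower-expressed genes of the list moved the same way. Mmp17, a matrix metalloproteinase, had 10.6, 14 and 18.0 CPM in Cartpt-high nuclei against 1.20, 1.83 and 2.24 CPM in the others (log2 fold change 2.96 ± 0.15, SE). Trhr, the thyrotropin-releasing hormone receptor, had 17.6, 29.4 and 36.9 CPM against 2.61, 2.88 and 4.12 CPM (log2 fold change 3.25 ± 0.12, SE). For both genes the libraries of the classes were fully separate. Cntnap4, Calb1 and Neurod2 were the other 3 called higher, with log2 fold changes of 1.42, 1.14 and 0.67. The call of Neurod2 was lost without cKO replicate 13 and with at least 10 Cartpt UMIs (largest edgeR adjusted p = 0.079).

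The cadherin Cdh9 (log2 fold change -2.34) and the calcium buffer Calb2 (-0.61) were lower in Cartpt-high nuclei. Genes of the list that were not called included Fstl4 (0.37), Drd4 (-0.05) and Tafa4 (-0.20). The data thus went with the label for part of the list and against it for Cdh9 and Calb2, and the groups of nuclei described further on differed in which genes they carried.

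Of all genes tested, 689 were called higher and 988 lower in Cartpt-high nuclei, and 331 and 540 of these did not overlap between the classes over the 8 libraries. Called or not, 1155 of the 15944 genes (7.24%) did not overlap, which is the base for each statement on overlap of single genes between the classes. With all nuclei thinned to 2000 UMIs, 429 genes were called higher and 621 lower, and 823 of these 1050 were among the 1677. The 15 genes with the largest positive fold changes, by the naming rule, which itself asks for the same direction in all 8 libraries, were called under each of 23 alternatives.

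Among these 15 were genes of receptors and a guidance cue. Gipr (chromosome 7, 18888169 to 18900228), the receptor of the gut hormone GIP, had 32.4, 44.0 and 53.4 CPM in Cartpt-high nuclei against 2.34, 3.80 and 5.67 CPM in the others (log2 fold change 3.43 ± 0.10, SE; edgeR adjusted p = 1.4e-24). Chrna3, the α3 nicotinic acetylcholine receptor subunit, had 31.7, 42.8 and 53.1 CPM against 6.54, 8.17 and 10.5 CPM (log2 fold change 2.29 ± 0.08, SE). Sema3a, a secreted repellent of growing axons, had 309, 372 and 545 CPM against 91.6, 99.9 and 109 CPM (log2 fold change 1.93 ± 0.06, SE). For each of these 3 genes every Cartpt-high sum lay above every sum of the other nuclei.

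The 15 also held genes of transcription factors and an enzyme. Tfap2d (chromosome 1, 19173246 to 19236570), an AP-2 family transcription factor, had 207, 255 and 327 CPM against 31.2, 39.5 and 42.8 CPM (log2 fold change 2.72 ± 0.04, SE). Hs3st4, a heparan sulfate sulfotransferase, had 736, 810 and 858 CPM against 98.6, 117 and 140 CPM (log2 fold change 2.75 ± 0.04, SE). Both were higher by more than the whole spread of the libraries. The zinc-finger gene Bnc2 had a log2 fold change of 1.87, Runx1 of 2.00, the reelin adaptor Dab1 of 1.87 and the small GTPase gene Rasd2 of 1.94. Wdr66 (2.47), Tmem232 (1.99), the α-actinin gene Actn2 (1.83) and the long non-coding RNA Sox5os4 (1.82) completed the 15.

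By the same naming rule, which asks for a mean of at least 30 CPM in the higher class, 10 lower genes were taken. Kcnd2, which encodes the A-type potassium channel Kv4.2, had 83.9, 287 and 384 CPM in Cartpt-high nuclei against 2466, 2569 and 2755 CPM in the others (log2 fold change -3.24 ± 0.10, SE; edgeR adjusted p = 7.6e-24). Foxp2, a forkhead transcription factor of several other RGC types, had 10.0, 18.3 and 36.7 CPM against 167, 174 and 202 CPM (log2 fold change -3.10 ± 0.09, SE). Il1rapl2, a synaptic member of the interleukin-1 receptor family, had 1.68, 18.5 and 38.6 CPM against 160, 227 and 273 CPM (log2 fold change -3.49 ± 0.15, SE). The Cartpt-high values of Il1rapl2 were the most uneven between libraries, and those of Kcnd2 were lowest in control replicate 4.

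Sorcs3 (log2 fold change -2.91), Gpc5 (-2.75), Pde1a (-2.72), Rtl4 (-2.70), the prolactin receptor gene Prlr (-2.70) and Cdh8 (-2.66) were also among the 10. Of 18 tested markers of other RGC types, 14 were lower, 1 was higher and 3 were not called. Over all genes 6.2% were called lower and 4.32% higher. The median log2 fold change of these markers was -1.48. Spp1 (-2.12), a marker of alpha RGCs, Zic1 (-3.83), Penk (-2.10) and Chrm2 (-2.23) were among those lower. Stxbp6 was the one higher (0.70), and it changed direction to -0.22 with at least 10 Cartpt UMIs required and was not called by DESeq2. Tbr1 was not called (-0.15), nor were Ppp1r1c (-0.13) and Igfbp4 (0.63).

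**Figure D2:**
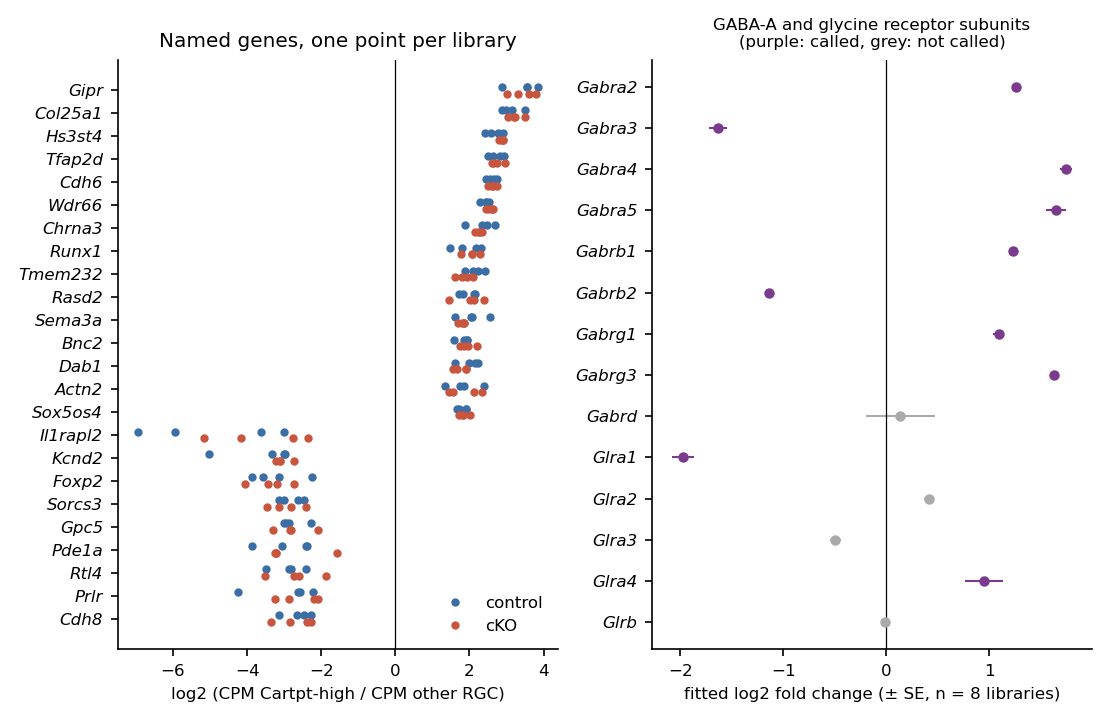
Left, log2 ratio of the CPM in Cartpt-high to the CPM in other RGC nuclei for the 15 named genes that were higher and 9 of those that were lower, with a point for each library (blue control, red cKO). Right, fitted log2 fold change ± SE of 14 GABA-A and glycine receptor subunits over 8 libraries, purple where called and grey where not. The points of Gipr and Col25a1 reach farthest right and overlap each other, and the lowest of them overlap points of Tfap2d and Hs3st4. The subunits divide into higher (Gabra4, Gabra5, Gabrg3) and lower (Gabra3, Glra1) ones.

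Inhibitory receptor subunits, the targets of amacrine GABA and glycine release, differed in composition. All 17 were tested, 8 were higher, 5 were lower and 4 were not called, with a median log2 fold change of 0.41. Over all 15944 genes tested, 4.32% were called higher and 6.2% lower, and these shares are the base for each list below. Among the α subunits, Gabra4 had 51.5, 65.3 and 81.2 CPM in Cartpt-high nuclei against 17.5, 19.8 and 22.7 CPM in the others (log2 fold change 1.74 ± 0.06, SE; edgeR adjusted p = 5.4e-23). Gabra2 had 758, 914 and 1027 CPM against 330, 371 and 420 CPM (1.26 ± 0.03, SE), and Gabra5 had a log2 fold change of 1.65. Gabra3, in contrast, was lower, with a log2 fold change of -1.64.

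The β subunits also went both ways. Gabrb1 (1.23) was higher and Gabrb2 (-1.14) was lower, both as log2 fold changes. Gabrg3 had 1565, 1779 and 2148 CPM against 508, 565 and 643 CPM (1.63 ± 0.03, SE), and Gabrg1 was higher (1.09). For each of these 8 α, β and γ subunit genes the classes did not overlap over the libraries. Of the glycine receptor genes, Glra1 was lower (-1.97) and Glra4 higher (0.95), while Glra2 (0.41), Glra3 (-0.49) and Glrb (-0.01) were not called. Glra2 and Glra3 missed only the threshold on size and were called in 1 and 8 of 23 alternatives.

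Acetylcholine receptor genes, which receive the second transmitter of starburst cells, were mixed, with 3 of 9 tested higher and 3 lower and a median log2 fold change of 0.01. Beside Chrna3, the α7 nicotinic subunit gene Chrna7 (0.56) and the muscarinic receptor gene Chrm3 (0.91) were higher. Chrna4 (-0.59), Chrm1 (-1.11) and Chrm2 (-2.23) were lower. The call of Chrna4 was lost in 5 of 22 alternatives, among them DESeq2, no block and leaving out cKO replicate 11 or 12. The abundant RGC subunits Chrna6 (0.01), Chrnb2 (0.01) and Chrnb3 (0.28) were not called.

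Of 24 glutamate receptor genes tested, 3 were higher and 8 lower, with a median log2 fold change of -0.21. The metabotropic receptor genes Grm7 (0.65) and Grm8 (0.61) were among those higher. Those lower included the AMPA subunit gene Gria1 (-1.56), the NMDA subunit genes Grin3a (-1.76), Grin2d (-1.44) and Grin2c (-1.56), and the kainate subunit genes Grik3 (-0.97) and Grik4 (-1.40). The core subunits Gria2, Gria4, Grin1, Grin2a and Grin2b had log2 fold changes between -0.28 and 0.30, under the threshold on size, and were not called.

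Sodium, calcium and HCN channel genes were mostly not called, with 2 higher and 3 lower of 24 and a median log2 fold change of -0.05. The shares called over all genes were 4.32% higher and 6.2% lower. Cacna1c (0.60) and the pacemaker channel gene Hcn4 (0.63) were higher, and Scn3a (-0.87), Cacna1e (-1.31) and Cacna2d2 (-1.0) were lower. Voltage-gated potassium channel genes showed 5 higher and 8 lower of 27, with a median of -0.17. Kcnip4, an auxiliary subunit of Kv4 channels, had 3296, 5420 and 5736 CPM in Cartpt-high nuclei against 17895, 19434 and 21451 CPM in the others (log2 fold change -1.97 ± 0.06, SE). The Kv4 auxiliary gene Dpp10 was lower (-0.99), and Kcnip3 was higher (0.95). Kcnd3, the Kv4.3 gene, was not called (-0.06).

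Genes of other peptides and secreted factors were mostly lower or not called. Of 11 tested genes on a list of neuropeptide precursors, 1 was higher and 6 were lower, with a median log2 fold change of -0.66. The list also held the growth factor gene Igf1 and the neurexophilin genes Nxph1 and Nxph3, which are not classical neuropeptide genes. Cck, the cholecystokinin gene, was the one higher, at 5.70, 7.81 and 11.8 CPM against 2.59, 3.37 and 4.83 CPM (1.25 ± 0.14, SE). Tac1 (-1.55), Penk (-2.10), Gal (-1.38), Sst (-0.66), Igf1 (-1.01) and Nxph1 (-1.04) were lower, and Adcyap1 (0.36) was not called. Levels were small for Gal and Sst, at means of 0.805 and 2.27 CPM in Cartpt-high nuclei. The call of Sst (edgeR adjusted p = 0.048) was lost in 13 of 22 alternatives, among them DESeq2, no block and leaving out control replicate 1 or cKO replicate 10, 11 or 12.

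The enzymes that cut peptide precursors went in opposite directions. Pcsk1, which encodes prohormone convertase 1/3, had 63.8, 83.6 and 127 CPM in Cartpt-high nuclei against 26.8, 39.1 and 54.3 CPM in the others (log2 fold change 1.17 ± 0.05, SE; edgeR adjusted p = 2.25e-19). Pcsk2, which encodes prohormone convertase 2, had 56.9, 96.7 and 136 CPM against 312, 339 and 360 CPM (-1.88 ± 0.06, SE), and Pcsk5 was also lower (-2.85). Of the 17 tested genes of peptide processing and dense-core vesicles, Pcsk1, Vgf (1.09), Chgb (0.71) and Syt4 (0.50) were higher, 2 were lower and 11 were not called. Syt4 lay at the threshold on size and lost its call in 10 of 23 alternatives, among them leaving out control replicate 1, 3 or 4 or cKO replicate 12 or 13. The median was 0.19, and Cpe, Pam, Cadps and Ptprn were among those not called.

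Of 41 transcription factors of RGC types, 4 were higher and 18 lower, with a median log2 fold change of -0.34. Beside Tfap2d and Bnc2, the POU factor gene Pou4f3 (1.25) and Bcl11b (1.45) were higher. The paralogous Pou4f2 (-1.44), Isl1 (-0.65), Isl2 (-1.01), Irx1 (-3.08) and Irx2 (-0.99) were lower. Pou4f1 (-0.21) and the Ebf factor gene Ebf1 (-0.19) were not called.

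Adhesion and guidance genes, which help set the wiring of the inner plexiform layer, showed calls in both directions. Of 38 adhesion genes, 6 were higher and 12 lower (median log2 fold change -0.22), with Cdh11 (1.22), Pcdh11x (1.48), Cntn4 (0.81) and Tenm2 (0.66) higher and Sdk1 (-1.13), Pcdh15 (-1.79), Tenm1 (-2.05) and Pcdh19 (-1.52) lower. Of 30 guidance genes, 9 were higher and 8 lower (median -0.07). The secreted cue gene Slit2 (1.19) and its receptor genes Robo1 (0.59) and Robo2 (0.52) were higher, as were Efnb2 (1.34) and the semaphorin receptor gene Nrp2 (0.94). Nrp1 (-0.62), Plxna4 (-1.54), Plxnc1 (-1.62) and Ntng1 (-1.24) were lower.

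Activity-regulated genes were partly higher. Of 14 tested immediate early and injury genes, 5 were higher (Fos 0.93, Fosb 1.37, Npas4 1.11, Nr4a1 0.90 and Nr4a3 1.42, as log2 fold changes), Jun was lower (-0.98) and 8 were not called, with a median of 0.13. Nr4a3 had 5.03, 19.6 and 45 CPM in Cartpt-high nuclei against 2.35, 7.32 and 12.8 CPM in the others. The classes overlapped because libraries differed, while Nr4a3 was higher within each of 8 libraries.

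Markers of other retinal cells that could reach the sort were compared in the same way, beside the shares over all genes of 4.32% higher and 6.2% lower. Of 10 rod genes, none was called, with a median log2 fold change of -0.20. Their summed level was 275 to 857 CPM in Cartpt-high and 324 to 970 CPM in other RGC nuclei. Starburst amacrine genes summed to 1.40 to 7.28 CPM in Cartpt-high nuclei, and the 1 tested, Megf10, was lower (-1.36). Of 9 tested genes of other amacrine cells 2 were lower (Meis2 and Slc17a8), and in each of the cone (7 tested), bipolar (8), horizontal (4) and endothelial and microglial (4) lists 2, 1, 1 and 1 were lower and none was higher. The bipolar gene was Isl1 (-0.65) and the horizontal gene Onecut1 (-0.69). Meis2 and Isl1 are also in the list of RGC transcription factors, and which cells their calls reflect was not tested. The call of the cone gene Arr3 (-0.56) was lost in 11 of 23 alternatives, among them DESeq2, no block and leaving out control replicate 4 or cKO replicate 10 or 12. Of 8 Müller glia genes 1 was higher (Dkk3, 0.64) and 1 lower (Slc1a3, -1.38). Of the 3 tested astrocyte and oligodendrocyte genes, Mbp was higher (0.95), at means of 30 and 15.2 CPM. Mog, Mag and Sox10 did not pass the filter. Of 4 tested genes that the study linked to myelin, the extracellular matrix gene Tnr was higher (0.53) and 3 were not called, with a median of -0.11.

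Levels followed the number of Cartpt UMIs on both sides of the threshold, in classes that left out RGC nuclei with 2 or more of Opn4, Eomes and Tbx20. Mean Cdh6 over the 8 libraries was 58.0 CPM in nuclei with no Cartpt UMI, 142 CPM at 4 UMIs, 285 CPM at 5 to 9 and 608 CPM at 20 or more. Col25a1 was 27.5, 106, 194 and 492 CPM in the same classes. Both genes continued upward within the Cartpt-high nuclei.

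Other genes changed differently over the classes. Tfap2d was 26.9, 163, 240 and 265 CPM in these classes, with little difference within the Cartpt-high nuclei, and Cntnap4 was 61.7, 135, 198 and 142 CPM. Kcnd2 was 2865, 1030, 352 and 221 CPM, and Foxp2 was 184, 106, 27.0 and 11.0 CPM. Nuclei just outside the threshold therefore held intermediate mean levels. Depth was also higher in the top class, with library medians of 4547 to 10302.5 UMIs at 0 and 7995.5 to 19223.5 UMIs at 20 or more. It did not rise across the threshold, with 5679.5 to 12343 UMIs at 4 and 5148 to 12007 UMIs at 5 to 9.

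**Figure D3:**
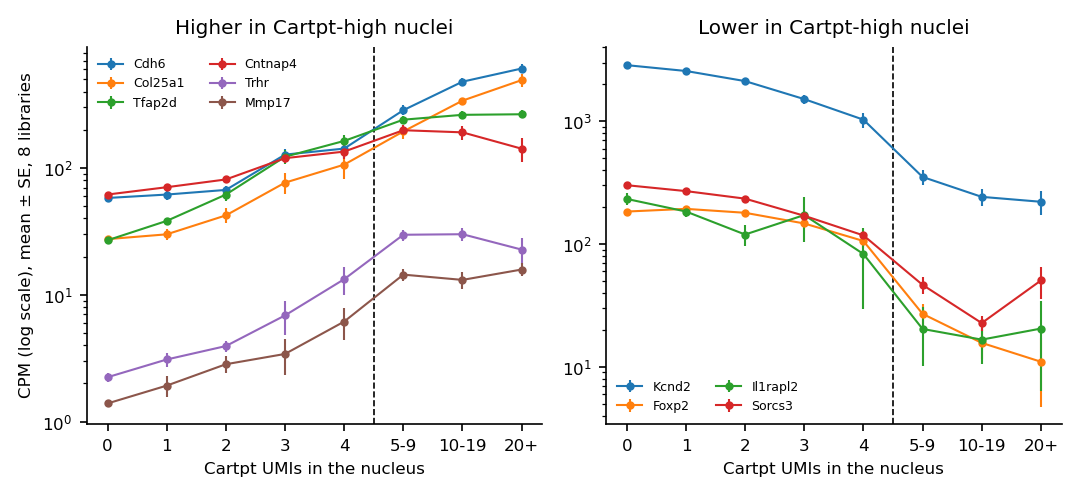
Mean CPM ± SE over 8 libraries (log axis) against the Cartpt UMIs in a nucleus, for 6 genes higher in Cartpt-high nuclei (left) and 4 lower ones (right). The dashed line is the threshold of 5 UMIs, where Cdh6 goes from 142 to 285 CPM and Kcnd2 from 1030 to 352 CPM.

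The Cartpt-high nuclei were not uniform. Clustering them alone gave 11 groups, which are numbered by size and described without a test, since their genes made them. Groups 2 and 3 together held 644 nuclei (33.7%, and 30 to 36.5% of a library), with Cdh6 at 1016 and 1036 CPM, Bnc2 at 1178 and 810 CPM and Col25a1 at 495 and 1147 CPM. They differed in Calb1, at 326 CPM in group 2 and 19.3 CPM in group 3, and in Hs3st4, at 2273 and 1079 CPM. In both, Mmp17 was at most 4.5 CPM and Trhr at most 0.7 CPM.

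Groups 4 and 7 held 352 nuclei (18.4%, and 15.2 to 21.3% of a library) and carried other genes of the list. Trhr stood at 162 and 125 CPM, Mmp17 at 60.2 and 75.0 CPM and Gipr at 134 and 212 CPM. Col25a1 was 7.8 and 4.8 CPM and Bnc2 0.4 and 7.3 CPM there, while Cdh6 was 30.7 CPM in group 4 and 136 CPM in group 7. Dab1 separated them, at 975 CPM in group 4 and 3847 CPM in group 7.

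Group 1 was the largest, with 409 nuclei (21.4%), and had the highest Cartpt of the groups, at 1458 CPM. It lacked both sets, with Cdh6 at 17.5 CPM, Col25a1 at 14.4 CPM, Mmp17 at 0.3 CPM and Trhr at 0.3 CPM. It carried Cntnap4 at 763 CPM, Sema3a at 1190 CPM and Tfap2d at 317 CPM. Its share was 17.9 to 25.1% in 7 libraries and 37.0% in control replicate 4. In that library Cntnap4 was also highest, at 301 CPM over all Cartpt-high nuclei, and Kcnd2 lowest.

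Groups 5, 6, 9, 10 and 11 held 441 nuclei (23.1%) and were mixed. Group 5 (232 nuclei) held middle levels of both kinds of gene, taken as sums over its nuclei. Foxp2 was detected in 25% of its nuclei and Kcnd2 in 72.4%. Group 5 also had the highest median depth of the groups, 11660.5 UMIs, and held the nucleus with 363 Cartpt UMIs. Foxp2 was 98.5 CPM and Kcnd2 1101 CPM there, below their means of 178 and 2590 CPM in the other RGC nuclei. Cdh6 at 198 CPM, Col25a1 at 123 CPM, Mmp17 at 11.1 CPM and Trhr at 17.4 CPM were above the means of the other RGC nuclei (68.9, 33.3, 1.80 and 3.01 CPM). Group 6 (120) had Tbr1 at 33.9 CPM and Meis2 at 722 CPM, group 9 (39) Chrm2 at 315 CPM, group 10 (26) Kcnd2 at 1870 CPM, and group 11 (24) Penk at 58.7 CPM, Fstl4 at 605 CPM and Cdh10 at 781 CPM. Cartpt stood at 684 to 944 CPM in these 5 groups and at 1192 to 1458 CPM in groups 1 to 4 and 7. Group 8 (63) had Cntnap4 at 373 CPM, Cdh6 at 303 CPM and Gipr at 140 CPM, with Cartpt at 800 CPM. In groups 6, 9, 10 and 11 Cdh6, Col25a1 and Mmp17 stood at 0 to 29.6 CPM.

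**Figure D4:**
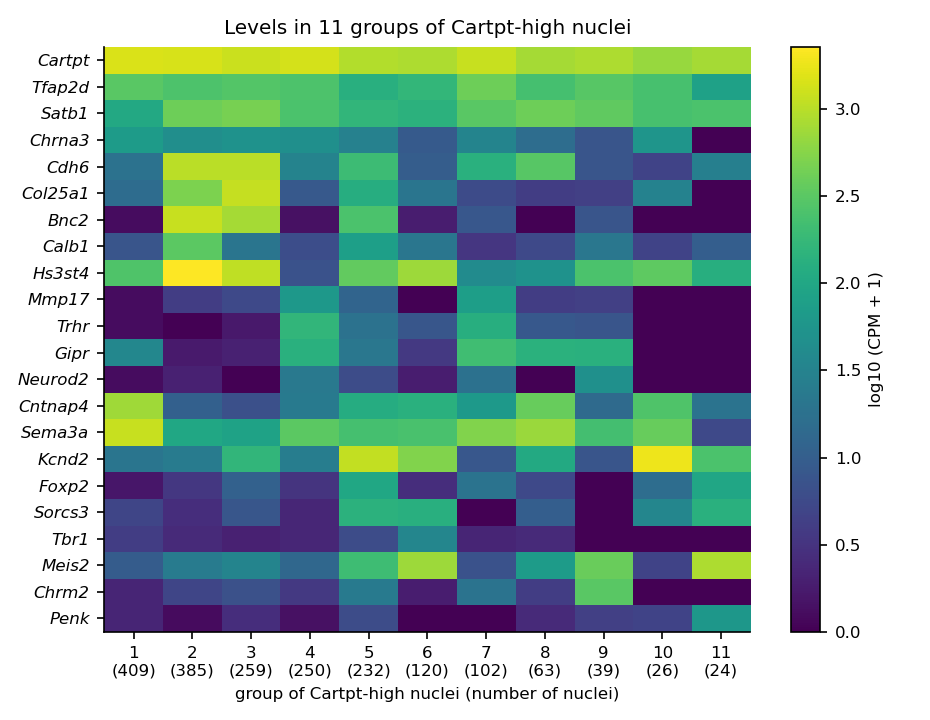
Colour gives log10 (CPM + 1) of 22 genes in the 11 groups of Cartpt-high nuclei, with the number of nuclei in parentheses. Cdh6, Col25a1 and Bnc2 are bright in groups 2 and 3, Mmp17, Trhr and Gipr in groups 4 and 7, and Cntnap4 and Sema3a in group 1.

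The same division could be counted without clusters, with genes chosen after the groups were seen. Of the 1909 Cartpt-high nuclei, 1010 (52.9%) had a UMI of Cdh6 or Col25a1, 346 (18.1%) of Mmp17 or Trhr, and 122 (6.39%) of both pairs. Thinned to 2000 UMIs these were 39.8%, 7.23% and 0.681%, against 12.0%, 1.02% and 0.0946% of the other RGC nuclei. Seen from the other side, 1169 RGC nuclei had UMIs of both Cdh6 and Col25a1, and 57.8% of them (44.3 to 68.8% in a library) were Cartpt-high. Of 133 RGC nuclei with UMIs of both Mmp17 and Trhr, 79.7% were Cartpt-high. The remaining nuclei of both sets fell below the threshold of 5 Cartpt UMIs or were left out for Opn4, Eomes and Tbx20. Of all RGC nuclei 8.28% were Cartpt-high. Both pair counts used all UMIs, so deeper nuclei met them more readily, and Cartpt-high nuclei were deeper.

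The genotypes were compared over libraries. Cartpt-high nuclei made up 7.56, 8.04, 5.53 and 8.52% of RGC nuclei in control replicates 1 to 4 and 7.86, 9.20, 10.0 and 9.32% in cKO replicates 10 to 13. The lowest cKO value lay among the control values. The means were 7.41 ± 1.32% and 9.10 ± 0.903% (SD, n = 4 each), a difference of 1.69 percentage points that did not pass the test (two-sided exact permutation p = 0.0857, with 0.0286 the smallest p possible). With at least 3 Cartpt UMIs in place of 5 the groups separated, with a difference of 2.27 points (exact permutation p = 0.0286). Without control replicate 3 the difference was 1.06 points. A share cannot tell more cells of a type from more Cartpt RNA in each.

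Cartpt over all RGC nuclei was 234, 167, 131 and 131 CPM in controls and 197, 320, 230 and 174 CPM in cKO. The cKO mean was 64.4 CPM higher, which did not pass the test (exact permutation p = 0.143) and was 34.6 CPM without cKO replicate 11. Cartpt in barcodes of at most 100 UMIs was 1555, 878, 836 and 1481 CPM in controls and 1313, 1765, 1101 and 1412 CPM in cKO, so the genotypes overlapped there too, and its part in the result was not tested.

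Piezo2, the targeted gene, encodes a mechanically activated ion channel and was sparse in these nuclei, with 95 UMIs in all. It stood at 7.28, 3.31, 5.03 and 2.59 CPM in controls and 10.0, 4.90, 5.60 and 2.84 CPM in cKO. The groups overlapped (difference 1.28 CPM, exact permutation p = 0.514), and the difference was -0.11 CPM without cKO replicate 10. Reads from the 3′ end do not show whether floxed exons were removed. Against the other RGC nuclei, at 9.29 to 18.9 CPM, Piezo2 was lower in Cartpt-high nuclei in 8 of 8 libraries (log2 fold change -1.49 ± 0.14, SE; edgeR adjusted p = 1.8e-10). No Olig2 UMI was seen in Cartpt-high nuclei.

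**Figure D5:**
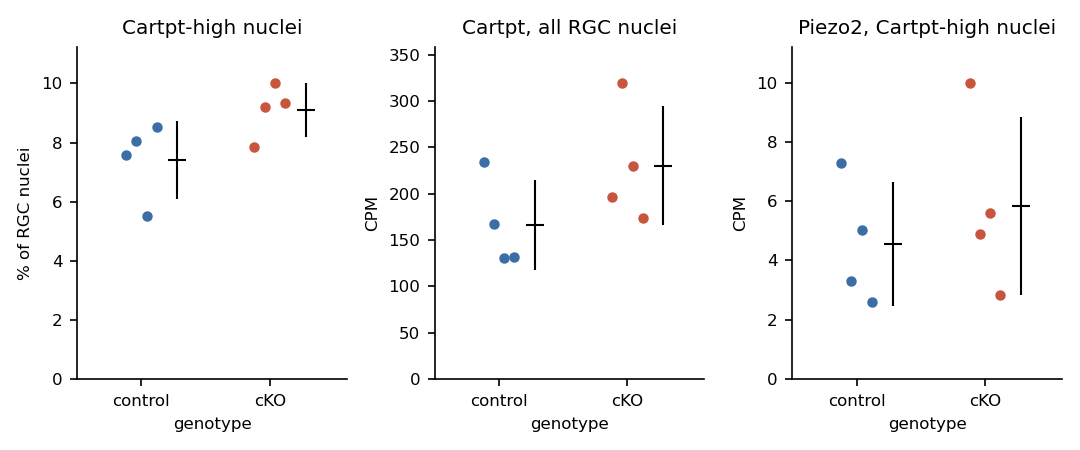
Share of RGC nuclei that were Cartpt-high (left), Cartpt in all RGC nuclei (middle) and Piezo2 in Cartpt-high nuclei (right), with a point for each of 4 control (blue) and 4 cKO (red) libraries and bars for the mean ± SD. The genotypes overlap in each panel.

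No gene was called between genotypes within Cartpt-high nuclei by edgeR, 0 of 12460 (0%), with 491 at an unadjusted p under 0.05 and 340 (2.73%) that did not overlap between the groups. DESeq2 called 1 (0.00803%), with 262 at an unadjusted p under 0.05. That gene was Lars2, a mitochondrial leucyl-tRNA synthetase, at 142, 143, 99 and 114 CPM in controls and 182, 254, 188 and 232 CPM in cKO (DESeq2 log2 fold change 0.72, adjusted p = 0.00695; edgeR adjusted p = 0.480). The other RGC nuclei showed the same levels, at a mean of 128 CPM in controls and 222 CPM in cKO.

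The GABA-A β1 subunit gene Gabrb1 had the next smallest p. It stood at 603, 673, 681 and 673 CPM in controls and 477, 475, 569 and 526 CPM in cKO, without overlap, but was not called (log2 fold change -0.41 ± 0.09, SE; edgeR adjusted p = 0.999). In other RGC nuclei its means were 261 and 228 CPM. Abca8a (-1.21), Gm20754 (-0.97) and Nomo1 (0.66), as log2 fold changes, made up the 5 genes with the smallest p. Within the lists none was called, and the median log2 fold change was -0.04 for the On-Off direction-selective genes (14 tested), -0.17 for the inhibitory receptor subunits (16) and 0.23 for the immediate early and injury genes (10), against 0.01 over all genes. Summed over a list, 3 of the 23 lists did not overlap between genotypes in Cartpt-high nuclei, which is given without a test. Of single genes 2.73% did not overlap. The inhibitory receptor subunits summed to 4964 to 5413 CPM in controls and 4281 to 4693 CPM in cKO, and in the other RGC nuclei to 2742 to 2775 and 2511 to 2637 CPM. The immediate early and injury genes, which include Lars2, summed to 366 to 460 CPM in controls and 525 to 594 CPM in cKO, and in the other RGC nuclei to 321 to 391 and 437 to 501 CPM. In Cartpt-high nuclei the mean of this sum was 424 CPM in controls and 558 CPM in cKO. Lars2 alone had means of 125 and 214 CPM, so it made up a large part of that difference. The glutamate receptor genes summed to 8649 to 8922 CPM in controls and 8164 to 8534 CPM in cKO, and in the other RGC nuclei to 8311 to 8551 and 7895 to 8209 CPM. The other RGC nuclei were thus separated in the same direction for all 3 lists. Rod genes had a median of 0.32, with summed levels of 275 to 800 CPM in controls and 450 to 857 CPM in cKO, and their part in these values was not tested.

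The difference between Cartpt-high and other RGC nuclei was also compared between genotypes. By edgeR 0 of 16798 genes (0%) passed, with 781 at an unadjusted p under 0.05, and by DESeq2 0 passed, with 275. The shares of the 7 groups with at least 100 nuclei did not pass after adjustment (exact permutation, lowest adjusted p = 0.333). The lowest unadjusted exact permutation p was 0.0857, for group 1. With 0.0286 the smallest p possible, no group could pass alone once 7 were adjusted together. The test therefore could not decide on a single group. Group 1 made up 25.8 ± 7.73% of Cartpt-high nuclei in controls and 19.3 ± 1.55% in cKO, and groups 2 and 5 made up 20.2 ± 1.07% and 9.44 ± 2.50% in controls and 20.9 ± 3.65% and 13.3 ± 3.73% in cKO (SD, n = 4 each).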

How the data were processed

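The 8 matrices of UMI counts that the authors deposited were unfiltered and made with Cell Ranger 7.0.0 and a GRCm39 reference per the labels. The deposited counts hold no later step of the study (ambient RNA removal, doublet removal, integration). Groups and replicate numbers came from the labels, which name no batch. The nuclei and gene lists were chosen with earlier results of these data known.

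UMI counts were summed per library over Cartpt-high and other RGC nuclei. The 9 genes of the selection and mitochondrial genes were left out of tests. The quasi-likelihood test of edgeR 4.0.16 (R 4.3.3; TMM factors, filterByExpr, Benjamini-Hochberg adjustment) was fitted over all genes, with the library as a block for Cartpt-high against other nuclei and genotype as the only term for cKO against control. The interaction was fitted over both sums with the library as a block. DESeq2 1.42.0 was the alternative. A call required both an adjusted p below 0.05 and a log2 fold change beyond 0.5 in size. SE was taken as the absolute log2 fold change divided by the square root of F. Named genes were the 15 largest positive and 10 largest negative log2 fold changes among called genes with the same direction in all 8 libraries and a mean of at least 30 CPM in the higher class, without predicted-gene names. For genotype, called genes were to be named, or otherwise the 5 smallest p. List genes may be named beside their list's counts. Shares and levels were compared by two-sided exact permutation over 70 assignments. Libraries are separate pools of retinae. The p-values of the genotype fit and of the permutation tests measure the spread between pools. With the library as a block they measure how far the difference between both sums of a library varied over pools.

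Cartpt-high nuclei were clustered with scanpy 1.11.5 (1500 variable genes, 20 components, 15 neighbours, resolution 0.5). Doublets were not removed, and leaving out high Scrublet scores was an alternative. Thinning drew 2000 UMIs from each nucleus. Positions are from GENCODE M39 on GRCm39. The fits were run on simulated counts with a single dispersion, in which libraries differed only in depth and in genes changed on purpose. That setting is simpler than these data. Precision follows the depth of the sums, 1511805 to 3574323 UMIs per library for Cartpt-high nuclei. Protein and promoter sequences were not used here, and some genes of the lists and of the named set are not reported here.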

Additional observations from a re-analysis of the deposited data

Results flagged for a closer look

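Pde1a in Cartpt-high nuclei stood at 10.2 CPM in cKO replicate 11, while the other 3 cKO libraries lay between 3.25 and 3.64 CPM, so that 1 library was far from the rest. Replicate 11 also had the largest share of group 5 nuclei, 18.2%, and a link to Pde1a was not tested. Of 56 groups of 4 libraries examined in this way 1 stood apart, and chance gives about 5%.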

How the results depend on the processing

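The 25 named genes kept direction and call under each of 23 alternatives (largest edgeR or DESeq2 adjusted p = 1.2e-09), but the size moved. With at least 3 Cartpt UMIs the log2 fold change of Prlr was -1.10, of Rtl4 -1.38, of Foxp2 -1.65 and of Il1rapl2 -1.99, and with at least 10 that of Gipr was 2.50. The other named lower genes also came closer to 0 under some alternative. The count of genes differing between Cartpt-high and other RGC nuclei, 1677, was 1050 after thinning to 2000 UMIs (fewer genes were tested) and 1596 to 1715 with 1 library left out. Without the library as a block (no replicate block) it was 1508. Between genotypes, 0 calls became 1 with DESeq2 and 41 without the filter on low counts, and stayed 0 with 1 library left out. For the interaction, 0 became 1 after thinning, 1 with at least 3 Cartpt UMIs, 10 without the filter, and 0 to 1 with 1 library left out (1 without control replicate 1 and 1 without cKO replicate 11). The cause of these moves was not tested. The share difference of 1.69 points was 2.27 with at least 3 Cartpt UMIs, 3.57 with at least 5 per 10000 UMIs, 6.53 for the share with a Cartpt UMI after thinning (a share that rod and bipolar nuclei reach too), and 1.06 to 2.10 with 1 library left out. The Cartpt difference was 34.6 to 87.2 CPM with 1 library left out. The Piezo2 difference was -0.11 to 2.28 CPM with 1 library left out, negative without cKO replicate 10, 0.224 CPM with at least 3 Cartpt UMIs and 2.92 CPM after thinning. Stxbp6 changed direction (log2 fold change -0.22) with at least 10 Cartpt UMIs. The alternative without barcodes carrying dopamine-synthesis genes was chosen after seeing the data and gave 1705 genes and a share difference of 1.68 points. Of the other list genes named, Calb2, Robo1, Robo2 and Tnr lost their call in 2 to 4 of 23 alternatives, each by size. With at least 3 Cartpt UMIs the calls of Cacna1e (-0.42), Meis2 (-0.46), Grm8, Chrna7, Hcn4, Cacna1c, Isl1 and Nrp1 were lost, and with at least 10 that of Dkk3. No paired analysis was possible between genotypes because their replicate numbers do not overlap. With 138 to 370 nuclei in a library, low genes such as Piezo2 rest on few UMIs.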

Other observations

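Barcodes outside the RGC nuclei with at least 2 of Th, Ddc, Slc18a2 and Gch1 numbered 12 to 24 in control and 27 to 34 in cKO libraries. As a share of barcodes passing the depth and mitochondrial conditions the control mean was 0.464 ± 0.0906% and the cKO mean 0.695 ± 0.10% (SD over 4 libraries). The exact permutation p was 0.0286, the smallest possible and not adjusted, and the criterion was chosen after seeing the data. The groups did not overlap. Of these barcodes, 186 had at most 1 UMI of Rbpms and Slc17a6 together, and they held 7125 to 20288 CPM of Cartpt in a library.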
